A study of Rattus norvegicus with 12 samples.

Results

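Genes of the antimicrobial peptides and secretions that coat the airways were followed in rat lung. The 9 genes were *Lcn2*, *Ltf*, *Defb1*, *Defb4*, *Defb5*, *Pigr*, *Slpi*, *Lyz2* and *Reg3g*, chosen by name with earlier results of these data known. Each was read by the probe whose RefSeq accession names it. Each gene had 1 probe, so that 9 of the 30367 rat probes of the array were concerned and no gene had probes that could disagree. The probes of *Lcn2*, *Defb4*, *Defb5*, *Pigr*, *Slpi* and *Lyz2* were well above background on all 12 arrays, whereas those of *Defb1*, *Ltf* and *Reg3g* were so on none. The series as a whole had 21239 detected probes, meaning that some group had the probe well above background on each of its 3 arrays.

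All lungs came from male Sprague-Dawley rats aged 8 to 12 weeks, and the RNA was that of the left upper lobe with every cell type in it. Rats of the control group followed the same schedule with air and saline. Rats of the CS+LPS group breathed cigarette smoke until day 30 and received lipopolysaccharide (LPS, a bacterial cell wall component) into the trachea on days 5 and 19, each time 200 μl of a 500 μg/ml solution. The CS+LPS+NaHS group was exposed in the same way and was injected beforehand with sodium hydrosulfide (NaHS), a donor of hydrogen sulfide. The CS+LPS+PPG group was exposed in the same way and was injected beforehand with propargylglycine (PPG), an inhibitor of the hydrogen sulfide-forming enzyme cystathionine gamma-lyase. Smoke and LPS were always given together, and every lung with NaHS or PPG had also had both. Each group had 3 arrays, and the labels number them as replicates without saying more, so that p-values measure the spread between these samples.

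The airway lining keeps bacteria in check with proteins that it secretes or carries into the lumen. Defensins are small cationic peptides that disrupt microbial membranes, lysozyme cuts the bacterial cell wall, lipocalin 2 and lactoferrin withhold iron, and the secretory leukocyte peptidase inhibitor restrains neutrophil proteases. The polymeric immunoglobulin receptor carries IgA across the epithelium, and Reg3 gamma is a secreted lectin that binds Gram-positive bacteria. Several of these genes are known to be switched on in epithelium by bacterial products and by interleukin-1 and interleukin-17.

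Levels are log2 normalized signals, that is the scanner's processed signal after each array was set to a common 75th percentile, and they compare arrays for 1 probe but not 1 probe with another. A gene was called changed at a fold change of at least 2 with an unadjusted p below 0.05. The p came from a linear model over all detected probes (limma), which is not the test that the study's methods name, and adjusted p-values are Benjamini-Hochberg values over all 21239 probes. Before normalization the 75th percentiles ran from 1229 to 3261, and the lowest belonged to control replicate 3, the next being 2110. Control replicate 3 also stood apart in its correlation with the other arrays, at 0.936 to 0.957, while the other 11 arrays correlated at 0.975 or more with each other. The arrays lay on 2 slides. Slide 2 held the 3 CS+LPS arrays and control replicate 3, and slide 1 held the other 8. Control replicate 3 was therefore the only link between the slides, and the CS+LPS group cannot be told apart from its slide in comparisons with the NaHS and PPG groups.

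*Lcn2*, the gene of lipocalin 2, which binds bacterial siderophores and so keeps iron from bacteria, was higher in every exposed lung than in every control lung. The 3 control arrays read 12.32, 12.19 and 12.46. The CS+LPS arrays read 13.44, 13.88 and 13.83, those with NaHS 13.72, 13.90 and 13.84, and those with PPG 13.73, 14.06 and 14.53. The group means were 12.32 ± 0.13 (SD, n = 3) in control, 13.72 ± 0.24 in CS+LPS, 13.82 ± 0.09 with NaHS and 14.10 ± 0.40 with PPG. Control stood clear of the rest, and the 3 exposed groups overlapped each other.

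Relative to control, *Lcn2* was 2.63-fold higher in the CS+LPS group (log2 difference 1.39 ± 0.20 SE, limma adjusted p = 0.0144). It was 2.82-fold higher with NaHS (1.49 ± 0.20 SE, limma adjusted p = 0.0372) and 3.43-fold higher with PPG (1.78 ± 0.20 SE, limma adjusted p = 0.00649). Without control replicate 3 these log2 differences were 1.46, 1.56 and 1.85, and with slide as a block they were 1.26, 1.56 and 1.85. For NaHS and PPG both settings rest on the same control arrays, so that they are not separate checks. All 3 differences were called under every setting that gave a test, although their adjusted p-values reached 0.241, 0.206 and 0.148 under the setting least favourable to each.

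*Defb4* and *Defb5* encode beta-defensins, and both rose in all 3 exposed groups. The control arrays of *Defb4* read 15.16, 15.17 and 14.06. The CS+LPS arrays read 15.92, 16.43 and 15.88, those with NaHS 16.22, 15.68 and 15.57, and those with PPG 16.26, 16.04 and 16.53. No exposed array was as low as any control array, and the low control value was that of control replicate 3, whose processed signal of 9323 compared with 33590 and 37000 on the other control arrays. *Defb4* was read by 10 spots an array, which spanned 8684 to 10448 on control replicate 3.

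The log2 difference of *Defb4* from control was 1.28 ± 0.31 SE in the CS+LPS group (2.42-fold, limma adjusted p = 0.0581). It was 1.02 ± 0.31 SE with NaHS (2.03-fold, limma adjusted p = 0.168) and 1.48 ± 0.31 SE with PPG (2.78-fold, limma adjusted p = 0.0324). Much of the size rested on control replicate 3. Without that array the log2 differences were 0.91, 0.66 and 1.11, and only the last remained called. Within slide 2, where control replicate 3 is the only control array, the difference with CS+LPS was 2.01, as it was with slide as a block. Within slide 1, where 2 control arrays remain, the difference with NaHS was likewise 0.66, and leaving out NaHS replicate 1 brought it to 0.83, so that it was called in neither case.

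The control arrays of *Defb5* read 7.37, 7.21 and 6.84. The CS+LPS arrays read 8.10, 8.82 and 9.75, those with NaHS 10.03, 9.23 and 8.83, and those with PPG 9.59, 9.48 and 9.11. Every exposed array lay above every control array, and the 3 exposed groups overlapped each other. In processed signal the probe went from 62.4 on its dimmest control array, control replicate 3, to 1050 on its brightest exposed array, that of NaHS replicate 1. Processed signals are not scaled between arrays, and the 75th percentiles of these arrays were 1229 and 2310, which widens the span.

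*Defb5* had the largest differences among the detected members. It was 3.35-fold higher in the CS+LPS group (log2 difference 1.75 ± 0.40 SE, limma adjusted p = 0.0513), 4.66-fold higher with NaHS (2.22 ± 0.40 SE, limma adjusted p = 0.0819) and 4.75-fold higher with PPG (2.25 ± 0.40 SE, limma adjusted p = 0.0218). All 3 calls were kept under every setting that gave a test, with log2 differences of 1.21 to 2.14, 1.67 to 2.49 and 1.70 to 2.39 in the same order. The lowest value of each range came from another background correction.

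**Figure D1:**
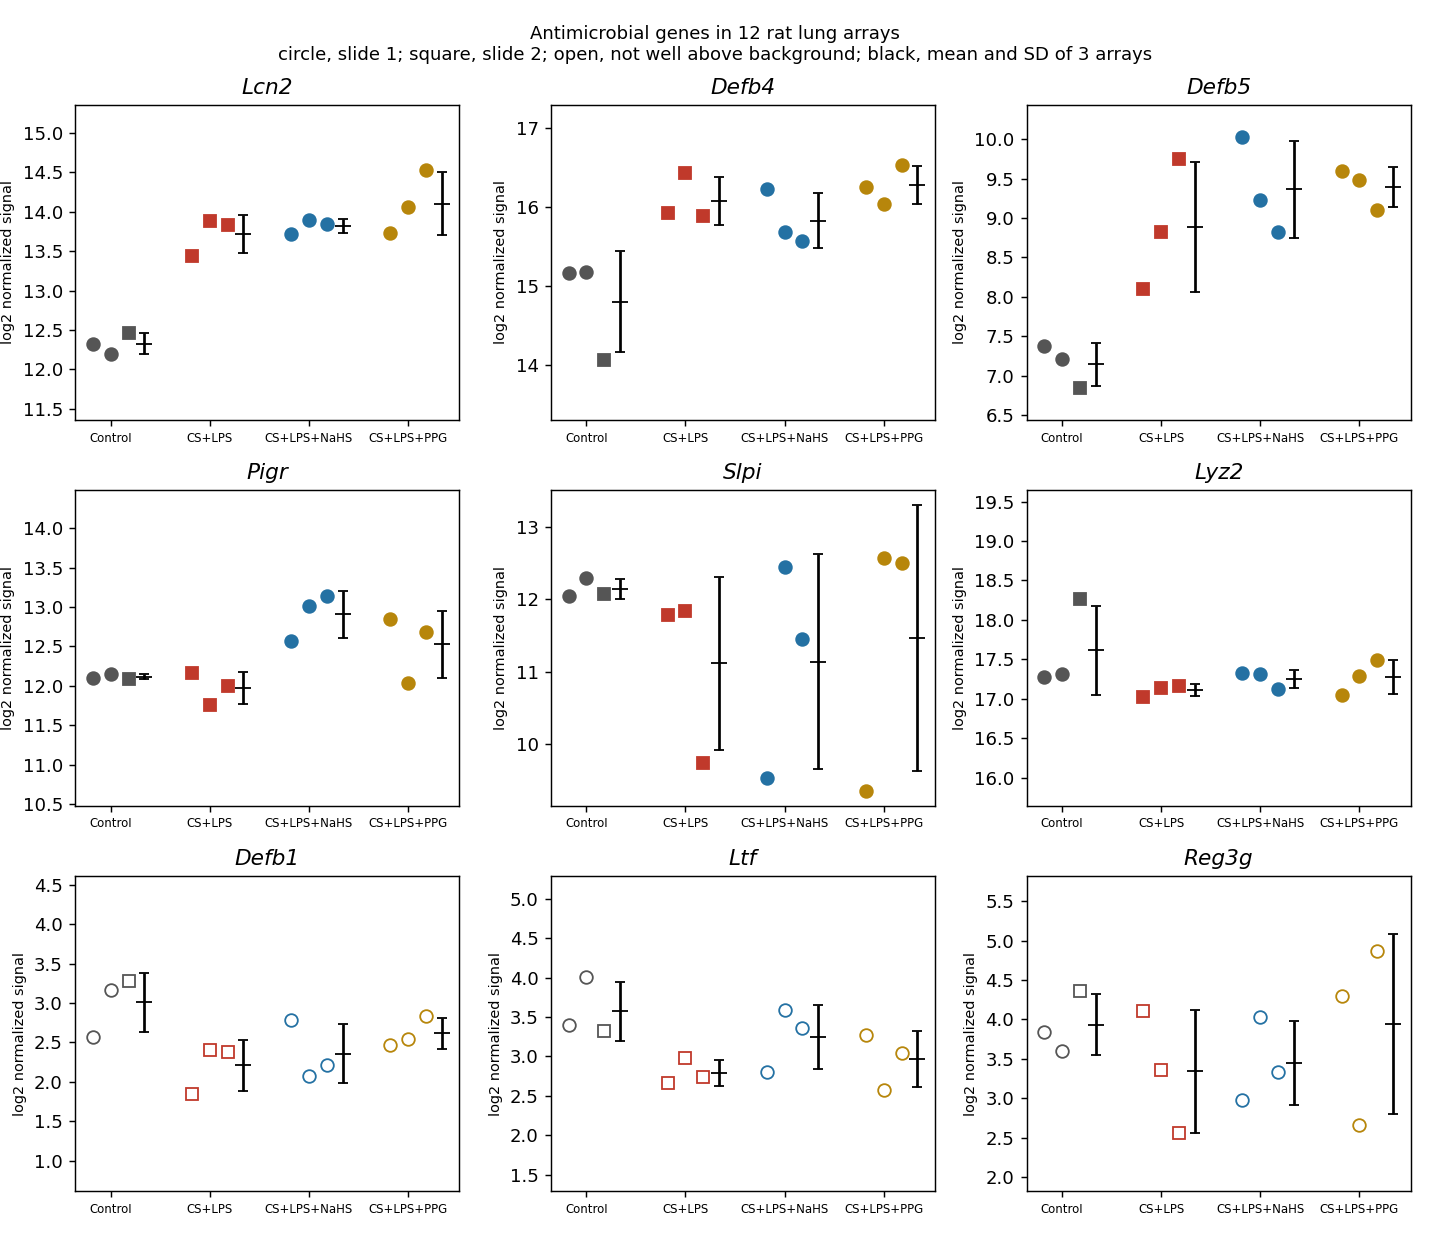
Log2 normalized signal (vertical axis) of the 9 genes on each of the 12 arrays by group, with circles for slide 1, squares for slide 2, open symbols where the probe was not well above background, and the mean ± SD of 3 arrays in black. *Lcn2*, *Defb4* and *Defb5* lie higher on all 9 exposed arrays than on all 3 control arrays, *Slpi* has 1 low array in each exposed group, and *Defb1*, *Ltf* and *Reg3g* are open throughout.

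In the deposited lists the probe of *Lcn2* lies on chromosome 3 from 11511592 to 11511651, that of *Defb5* on chromosome 16 from 75403174 to 75403233, and that of *Defb4* on chromosome 16 from 75442178 to 75445007, all on the minus strand. The lists name no genome build, and the array's own design header names rn4. *Defb5* and *Defb4* are immediate neighbours in the GRCr8 gene order, within a run of beta-defensin genes. Promoters were looked up in RefSeq for GRCr8, where 6 of the 9 genes had an entry, *Defb4*, *Defb1* and *Slpi* being the others. The 250 bases before the start of *Lcn2* and *Defb5* are shown because these genes moved together, 5′ to 3′ and in lower case, with matches to a searched motif in capitals. *Lcn2* is at chr3:36081781-36082030 and *Defb5* at chr16:77317829-77318078, both on the minus strand.
Lcn2: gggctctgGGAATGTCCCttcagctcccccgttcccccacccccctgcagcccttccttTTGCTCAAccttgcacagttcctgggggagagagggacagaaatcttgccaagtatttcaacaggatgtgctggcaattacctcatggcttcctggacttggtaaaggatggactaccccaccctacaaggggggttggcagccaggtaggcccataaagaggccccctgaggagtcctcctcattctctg
Defb5: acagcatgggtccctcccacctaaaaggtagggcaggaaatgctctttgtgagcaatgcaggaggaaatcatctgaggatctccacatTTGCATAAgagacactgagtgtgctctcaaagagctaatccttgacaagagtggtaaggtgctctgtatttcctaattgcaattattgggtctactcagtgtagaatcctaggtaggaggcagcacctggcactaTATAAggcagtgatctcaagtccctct

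The *Lcn2* promoter held 1 match to the NF-kB consensus on the opposite strand, which stands on the shown strand as GGAATGTCCC from base -242 to -233. It also held 1 match to the C/EBP letters TTGCNNAA, TTGCTCAA from -191 to -184. The *Defb5* promoter held 1 match to the same C/EBP letters, TTGCATAA from -162 to -155, and the TATA letters TATAA from -27 to -23. Both strands were searched, and no 2 of these matches overlap. Of all 33469 promoters cut to the same length, 6.33% held the NF-kB consensus, 9.22% the C/EBP letters and 24% the TATA letters. The AP-1 letters TGANTCA and the STAT letters TTCNNNGAA, found in 6.34% and 7.67% of promoters, were in neither window. Among the other members with an entry, *Lyz2* held the C/EBP letters and *Reg3g* the NF-kB consensus and TATA letters. A match describes letters only, and no binding was measured here.

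*Pigr*, the receptor that moves polymeric IgA into the lumen, stood apart from the defensins in its order of groups. The control arrays read 12.11, 12.15 and 12.09, and the CS+LPS arrays 12.16, 11.76 and 12.00. With NaHS they read 12.57, 13.01 and 13.14, above every control and CS+LPS array. With PPG they read 12.85, 12.04 and 12.69, so that 2 of the 3 were above all control arrays and 1 was below them. Between the NaHS group and control 25.3% of all probes did not overlap, and between the NaHS and CS+LPS groups 20.3% did not.

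The highest mean of *Pigr* was that of the NaHS group and the lowest that of the CS+LPS group. The difference between them was 0.93 ± 0.22 SE on the log2 scale, a 1.91-fold difference that missed the fold criterion (95% interval 1.36 to 2.67-fold, limma adjusted p = 0.0958). Since the CS+LPS arrays shared a slide that no NaHS array was on, NaHS and slide cannot be told apart here. Leaving out CS+LPS replicate 1 or NaHS replicate 1 brought the value to 1.03 or 1.10 and past the fold criterion, while leaving out NaHS replicate 3 lowered it to 0.82. Relative to control, the NaHS group was 0.79 ± 0.22 SE higher (1.73-fold, limma adjusted p = 0.145), a comparison that did hold 2 control arrays on the slide of the NaHS arrays. The log2 difference was 0.55 ± 0.22 SE between the PPG and CS+LPS groups (limma adjusted p = 0.395), and 0.41 ± 0.22 SE between PPG and control (limma adjusted p = 0.235). For CS+LPS against control it was -0.14 ± 0.22 SE (limma adjusted p = 0.689).

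*Slpi*, the secreted inhibitor of neutrophil elastase and cathepsin G, was the most variable member within groups. The control arrays agreed closely, at 12.05, 12.30 and 12.08. The CS+LPS arrays read 11.78, 11.84 and 9.74, those with NaHS 9.52, 12.44 and 11.45, and those with PPG 9.35, 12.57 and 12.50. Each exposed group thus had 1 array with a much lower signal than its others, and only the CS+LPS arrays were all below the control arrays. Both spots of the probe were low on these 3 arrays. On CS+LPS replicate 3 they read 808 and 1036, on NaHS replicate 1 they read 685 and 797, and on PPG replicate 1 they read 593 and 728, whereas the lowest spot on the other 9 arrays read 2094.

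With this spread no difference of *Slpi* could be detected. The group SD was 0.14 in control, 1.20 in CS+LPS, 1.49 with NaHS and 1.84 with PPG. The fold against control was 0.49 in the CS+LPS group (95% interval 0.12 to 2.07), 0.50 with NaHS (0.12 to 2.10) and 0.63 with PPG (0.15 to 2.65), with limma adjusted p-values of 0.491, 0.584 and 0.657. On the log2 scale the difference with PPG turned from -0.67 to 0.39 without PPG replicate 1. That with CS+LPS went from -1.02 to -0.33 without CS+LPS replicate 3, and that with NaHS shrank to -0.20 without NaHS replicate 1. RefSeq lists pseudogenes of *Slpi* in rat, and whether the probe also reads them was not tested.

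*Lyz2*, the gene of lysozyme, which macrophages and airway gland cells secrete, did not pass the test in any comparison. The control arrays read 17.27, 17.31 and 18.27. The CS+LPS arrays read 17.02, 17.14 and 17.17, those with NaHS 17.32, 17.31 and 17.12, and those with PPG 17.05, 17.29 and 17.49. The CS+LPS arrays were all below the control arrays by a small margin, and control replicate 3 stood out as high. Its processed signal of 168606 lay within the range of all 12 arrays, 136963 to 189318, a span of 1.38-fold, while the 75th percentiles by which arrays were scaled spanned 2.65-fold.

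The log2 difference of *Lyz2* from control was -0.51 ± 0.24 SE in the CS+LPS group, -0.36 ± 0.24 SE with NaHS and -0.34 ± 0.24 SE with PPG (limma adjusted p = 0.21, 0.437 and 0.359). Without control replicate 3 the values were -0.18, -0.04 and -0.02. With slide as a block, and within slide 2, the difference with CS+LPS was instead -1.16 and was called, where control replicate 3 again stood alone for control and 22.9% of all probes were called under the block. No spot of any array was saturated. RefSeq lists a second lysozyme gene beside it, and whether the probe also reads that one was not tested.

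The probes of *Defb1*, *Ltf* and *Reg3g* gave no measurable level. Defensin beta 1 is the constitutive epithelial defensin, *Ltf* encodes lactoferrin, and *Reg3g* encodes Reg3 gamma. Their processed signals ran from 4.84 to 9.07, from 5.37 to 17.7 and from 6.31 to 28.6 over the 12 arrays, and none was well above background on any of them. The log2 values of *Reg3g* ranged from 2.55 to 4.87, both within the exposed groups, and those of *Defb1* and *Ltf* from 1.84 to 3.28 and from 2.58 to 4.00. No fold change is given for them, and a signal below background does not show that the transcript was missing.

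Counted together, 3 of the 6 detected members were called higher and none lower in each of the 3 comparisons with control, and they were *Lcn2*, *Defb4* and *Defb5* each time. The shares of all probes called in these comparisons were 4.6% without either agent, 2.58% after NaHS and 4.3% after PPG. At an adjusted p below 0.05 the count was 1, 1 and 3 of 6 members, where 2.1%, 0.122% and 5.2% of all probes passed. The median log2 difference of the 6 members was 0.57, 0.91 and 0.94, beside -0.06, 0.02 and 0.00 over all probes. Because the members were chosen with earlier results of these data known, standing above these shares is a description and no test. The 3 comparisons share the control arrays, so that a low or high control array enters all of them. Groups that did not overlap were themselves common, at 25.5%, 25.3% and 33.6% of all probes.

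Between the exposed groups no member was called. In CS+LPS+NaHS against CS+LPS 1.94% of all probes were called and 0.739% passed the adjusted threshold, and in CS+LPS+PPG against CS+LPS 2.14% and 0.584% did. For *Lcn2* the 95% interval of the fold was 0.79 to 1.46 with NaHS and 0.96 to 1.77 with PPG. For *Defb4* it was 0.53 to 1.34 and 0.72 to 1.83, and for *Defb5* 0.76 to 2.55 and 0.77 to 2.60. A fold of 2 was thus outside both intervals of *Lcn2* and within both of *Defb5*. These intervals do not allow for the slide, with which both comparisons coincide. With slide as a block, which rests on control replicate 3 alone, *Defb4* was 1.36 lower on the log2 scale with NaHS than in CS+LPS (limma adjusted p = 0.0302) and *Lyz2* was 1.12 and 1.14 higher with NaHS and PPG (limma adjusted p = 0.00952 and 0.00903), in a fit that called 4332 and 4284 of all probes.

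CS+LPS+NaHS against CS+LPS+PPG was made within slide 1. In it 0.499% of all probes were called. The adjusted threshold was passed by 0% of them, that is by 0 of 21239 probes in limma, although 1883 had an unadjusted p below 0.05. The fold between NaHS and PPG was 0.82 for *Lcn2* (95% interval 0.60 to 1.11), 0.73 for *Defb4* (0.46 to 1.17), 0.98 for *Defb5* (0.53 to 1.80) and 1.30 for *Pigr* (0.93 to 1.82). That of *Slpi* was 0.80, with an interval of 0.19 to 3.35, too wide to show a change of 2-fold either way.

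**Figure D2:**
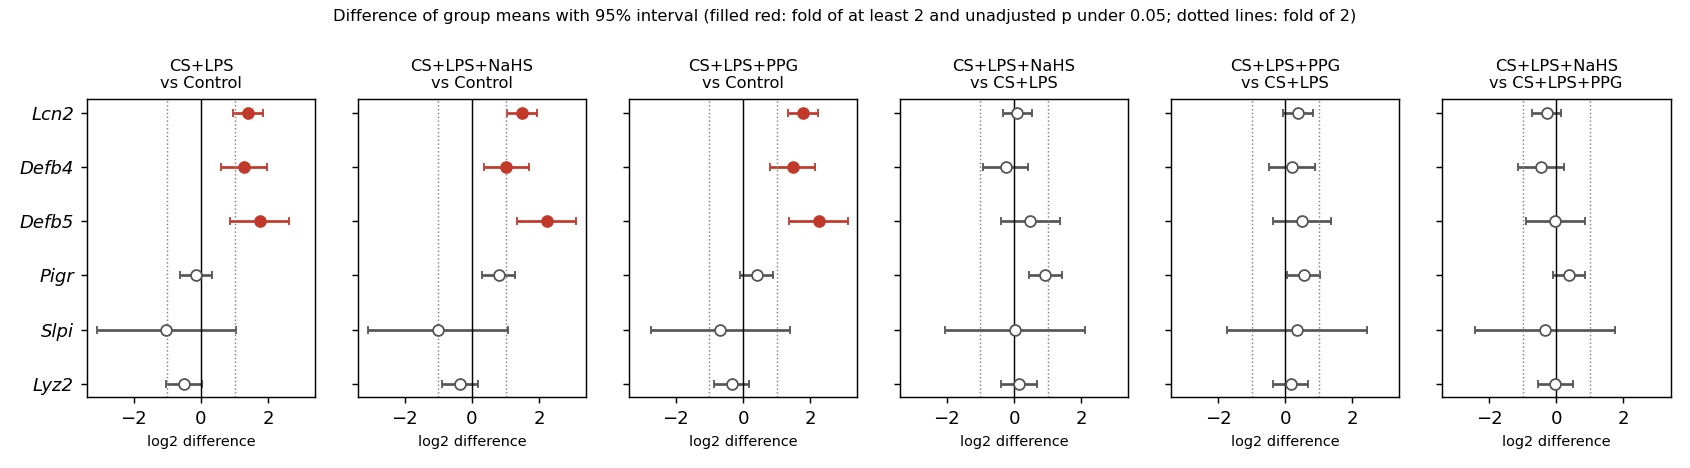
Log2 difference of group means (horizontal axis, point) with its 95% interval (bar) for the 6 detected members in the 6 comparisons, with called members filled in red. *Lcn2*, *Defb4* and *Defb5* are to the right of 0 in the 3 comparisons with control and near 0 between exposed groups, and the intervals of *Slpi* are the widest.

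**Figure D3:**
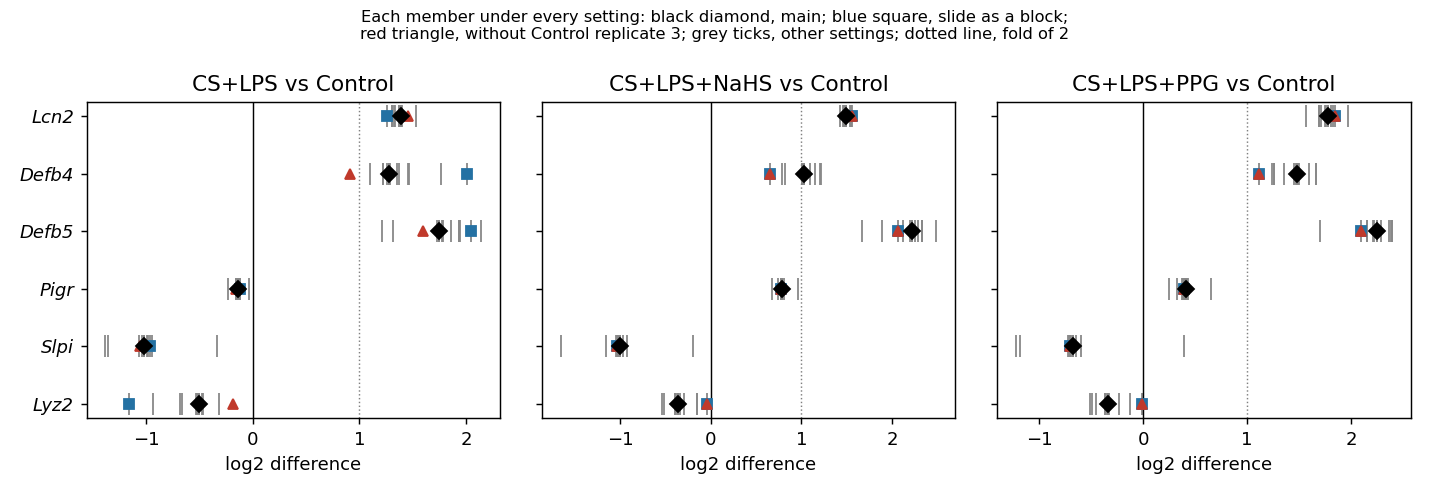
Log2 difference from control (horizontal axis) of the 6 detected members under every setting, with the reported value as a black diamond, slide as a block as a blue square and the value without control replicate 3 as a red triangle, and grey ticks for the other settings. *Lcn2* and *Defb5* stay to the right of the 2-fold line at 1 under every setting, while *Defb4* falls to 0.91 and 0.66 in the first 2 comparisons without control replicate 3.

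Across the 12 arrays *Lcn2* correlated with *Defb5* at r = 0.85 and with *Defb4* at r = 0.81, and *Defb4* with *Defb5* at r = 0.80. These values are a description, since the 12 arrays fall into groups that differ and the genes share the scaling of each array. *Lcn2* and *Slpi* correlated at r = -0.17, and *Lcn2* and *Pigr* at r = 0.37. The gene most like *Lcn2* over the 12 arrays was *Fuca1* (r = 0.94), followed by *Isca2* and *Cd83* at the same rounded value. For *Defb5* it was *Nelfe* (r = 0.96), followed by *Cfp* and *Cfl1*, and for *Defb4* it was *Mrpl41* (r = 0.98), followed by *Pop4* and *Lsm7*. *Pigr* was most like *Ppard* (r = 0.96), then *Fam78a* and *Maf*, *Lyz2* most like *Tfap2d* (r = 0.97), then *Atg4d* and *Mtres1*, and *Slpi* most like *Raph1* (r = 0.86), then *Prss12* and *Prdx6*. The genes like *Lyz2* were highest on control replicate 3, as *Lyz2* was. *Tfap2d* read 7.94 there and at most 6.96 on the other arrays, so that the correlations of *Lyz2* lean on that array. The genes like *Defb4* and *Defb5* were lowest on control replicate 3, as these defensins were. *Mrpl41* read 12.29 there and 12.76 and 12.80 on the other control arrays, so that this array enters those correlations too.

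Other antimicrobial genes were taken from 7 lists by function, which held 94 genes, 82 of them with a probe and 63 detected. In CS+LPS against control 7 of the 63 were called higher and 1 lower, with a median log2 difference of 0.39 beside -0.06 over all probes, of which 1.53% were called higher. With NaHS 6 were higher and 1 lower (median 0.35, all probes 0.02), where 1.35% of all probes were called higher. With PPG 13 were higher and 1 lower (median 0.65, all probes 0.00), where 2.39% were called higher. The lists too were chosen with earlier results of these data known, so that these counts beside the shares are a description. Over all 63 genes, called or not, 2, 0 and 11 had an adjusted p below 0.05. For NaHS and PPG, leaving out control replicate 3 and taking slide as a block give the same differences from control. Without control replicate 3 the genes called higher numbered 6, 9 and 13, and with slide as a block 17, 9 and 13, the last fit calling 22.9% of all probes in CS+LPS against control.

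The ficolins and other pattern-recognition lectins held 3 of the 7 genes called higher in CS+LPS against control. *Fcnb*, a ficolin of neutrophils and monocytes, had a control mean of 8.96 ± 0.96 (SD, n = 3). Its mean was 11.71 ± 1.19 in CS+LPS, 11.71 ± 0.48 in the NaHS group and 11.58 ± 0.46 in the PPG group. Its log2 differences from control were 2.76, 2.75 and 2.62, with limma adjusted p-values of 0.045, 0.119 and 0.0399, and all 3 calls were kept when any 1 array was left out. *Fcna*, a ficolin made by macrophages, was 1.08, 1.15 and 1.47 higher, and the first pair of calls was lost without control replicate 3. *Ptx3*, a soluble pentraxin, was called with CS+LPS (1.08) and with PPG (1.22, limma adjusted p = 0.0419), the first call being lost without control replicate 2 or CS+LPS replicate 3.

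Among the enzymes, *Rnase6*, an antimicrobial ribonuclease of monocytes and macrophages, was 1.44 higher with CS+LPS, 1.26 with NaHS and 1.70 with PPG (limma adjusted p = 0.0809, 0.182 and 0.0416), the call with NaHS being lost without NaHS replicate 1. *Mpo*, the myeloperoxidase of neutrophil granules, followed another order. It read 5.60, 5.66 and 4.61 in control, 4.54, 5.0 and 4.71 in CS+LPS, then 6.11, 6.51 and 6.36 with NaHS and 6.81, 6.32 and 6.30 with PPG. All 4 arrays of slide 2, control replicate 3 among them, lay below all 8 of slide 1, and that control array was not well above background. *Mpo* was called higher with NaHS and with PPG than in CS+LPS (log2 differences 1.58 and 1.73, limma adjusted p = 0.03 and 0.021). With slide as a block it was called in neither. Against control it was 1.04 and 1.19 higher with NaHS and PPG, both calls being lost without control replicate 3. *Duox2*, an oxidase that makes hydrogen peroxide for lactoperoxidase, was 1.16 lower with NaHS than in control (limma adjusted p = 0.203), and the call was lost without control replicate 2.

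The metal-binding list included *Slc11a1*, a metal transporter of the phagosome, which was 1.30, 1.14 and 1.19 higher in the 3 exposed groups, each call being lost without control replicate 3. *S100a8* and *S100a9*, the 2 chains of calprotectin, were called with PPG only, at 1.32 and 1.33 (limma adjusted p = 0.0983 and 0.0683), and leaving out control replicate 3, PPG replicate 2 or PPG replicate 3 ended the call of the first. Their differences with CS+LPS were 0.80 and 0.82, and the groups with and without PPG were not shown to differ. *Hpx*, the haem carrier hemopexin, was 1.20 lower with PPG than in control (limma adjusted p = 0.0613), and the call was lost without control replicate 3. In the list of secretory immunoglobulin genes *Tnfrsf17* and *Mzb1*, which mark antibody-secreting cells, were 1.13 and 1.09 higher with CS+LPS, and both calls were lost without control replicate 3 or CS+LPS replicate 3. *Tnfrsf17* was 1.24 lower with NaHS than in CS+LPS (limma adjusted p = 0.176). *Tnfsf13*, the gene of the plasma cell survival factor APRIL, was 1.03 higher with PPG than in control (limma adjusted p = 0.0244), and the call was lost without control replicate 3 or PPG replicate 3.

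*Bpifa1*, the secreted airway protein of the BPI and PLUNC family, had the widest range of all. Its control arrays read 4.98, 6.24 and 11.47 and its CS+LPS arrays 9.48, 7.67 and 6.24. With NaHS they read 6.52, 10.67 and 11.53, and with PPG 15.03, 13.66 and 13.36. The PPG arrays lay above all other arrays, by 6.45 over control and 6.22 over CS+LPS in the log2 means (limma adjusted p = 0.0509 and 0.167), and the other 3 groups overlapped. With NaHS it was 4.45 lower than with PPG (limma adjusted p = 0.555). Of the antiproteases, *Wfdc21* and *Serpinb1a* were called with PPG against control (1.10 and 1.05), each call being lost when 1 of several arrays was left out, and *Wfdc18*, not well above background on any control array, was at least 2.44-fold higher with PPG. *Wfdc18* was not well above background on any NaHS array either. It read 5.60, 4.80 and 5.73 with PPG and 3.67, 4.98 and 3.68 in CS+LPS. The detection filter was thus not passed through control or NaHS arrays, and its calls with PPG, where it was highest, are a description.

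*Spink5*, an inhibitor of serine proteases, was the antiprotease called lower in CS+LPS than in control, by 1.26 on the log2 scale (limma adjusted p = 0.1), and the call was lost without CS+LPS replicate 3. It was well above background on 1 of 3 arrays in both groups, so that it passed the detection filter only through NaHS or PPG arrays. Its control arrays read 5.45, 5.17 and 4.69 and its CS+LPS arrays 4.69, 4.06 and 2.78, while all NaHS and PPG arrays lay between 5.27 and 5.85. As with *Mpo*, all 4 arrays of slide 2 lay below all 8 of slide 1. It was 1.62 and 1.70 higher with NaHS and PPG than in CS+LPS (limma adjusted p = 0.108 and 0.116), and both calls were kept when any 1 array was left out but not with slide as a block. As *Spink5* was tested through the groups in which it was high, these calls are a description. *Wfdc3* and *Wfdc18* were 1.26 and 1.27 higher with PPG than in CS+LPS (limma adjusted p = 0.202 and 0.431). The call of *Wfdc3* was lost without PPG replicate 2. That of *Wfdc18* was lost when any 1 of 6 arrays was left out and with slide as a block. With NaHS *Wfdc21* was 1.05 lower than with PPG and *Wfdc18* at least 3.01-fold lower (limma adjusted p = 0.555 for both).

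Of the 20 genes in the list of other defensins and the cathelicidin, 11 were detected and none was called in CS+LPS or CS+LPS+PPG against control. *Defb3* was called with NaHS against both control and CS+LPS. It was well above background on all 3 NaHS arrays, on 2 with PPG, on 1 in CS+LPS and on no control array. It thus passed the detection filter only through the group in which it was high, so that its calls are a description. Against CS+LPS it was 2.68 higher (limma adjusted p = 0.395), a call lost when any 1 of 4 arrays was left out and with slide as a block. Against control the NaHS mean was at least 6.26-fold higher (limma adjusted p = 0.183). Within CS+LPS it read 2.62, 3.23 and 6.52, and within PPG 6.46, 6.06 and 2.87, so that some of these arrays lay within the range of the NaHS arrays, 5.86 to 7.49. *Camp*, the cathelicidin gene, was 0.76 ± 0.37 SE higher with CS+LPS (limma adjusted p = 0.221) and was not called.

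**Figure D4:**
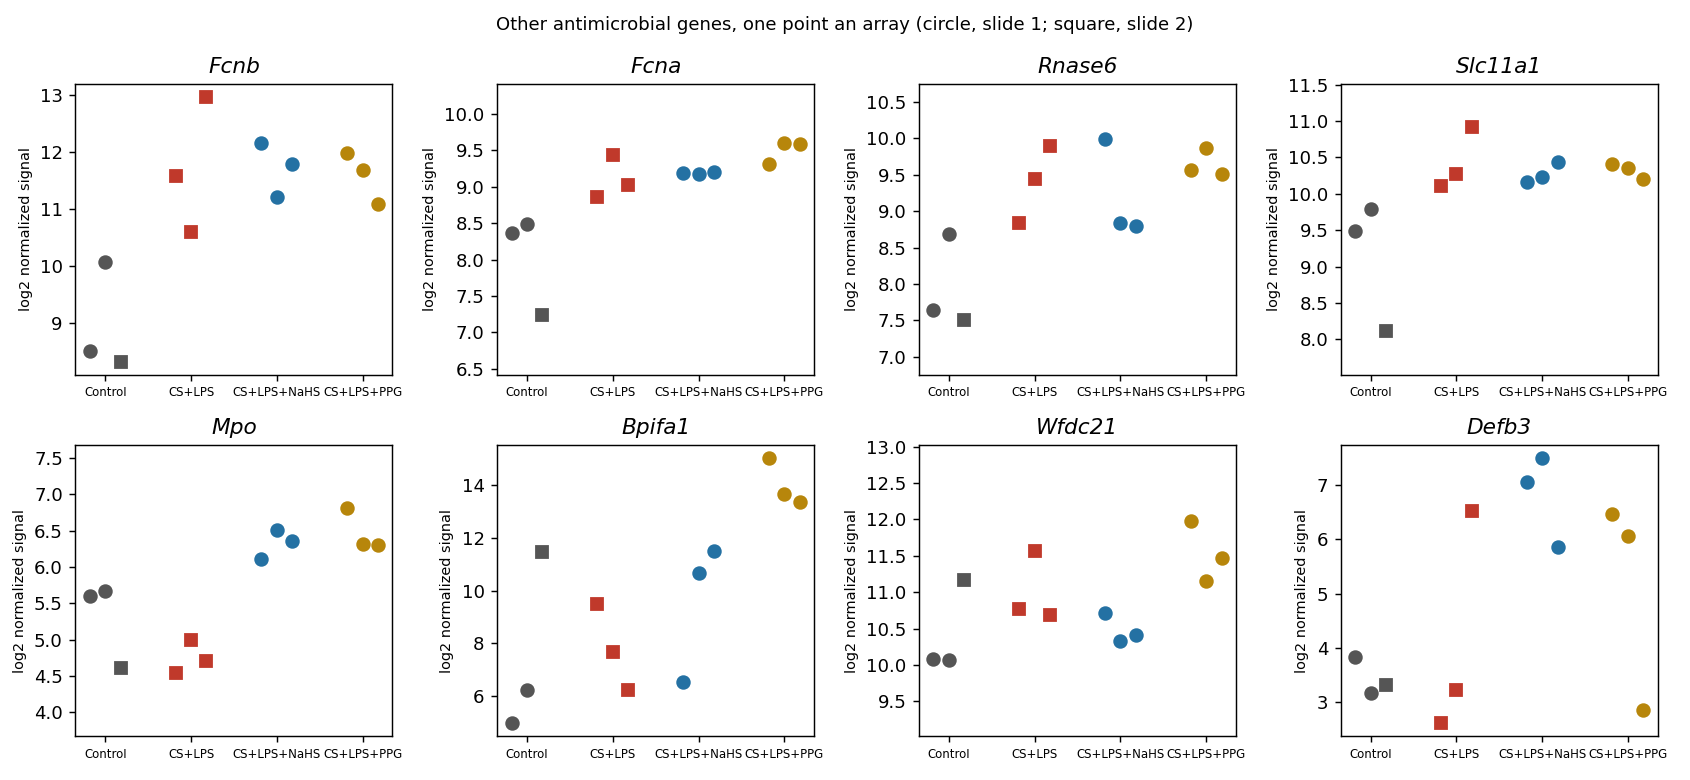
Log2 normalized signal (vertical axis) of 8 other antimicrobial genes on each array by group, circles for slide 1 and squares for slide 2. *Fcnb* lies higher on all exposed than on all control arrays, *Mpo* is lower on all 4 arrays of slide 2 than on all 8 of slide 1, and *Bpifa1* is highest on the 3 arrays with PPG.

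Of 20 signals known to induce epithelial antimicrobial genes, 15 had a probe and 11 were detected. None was called with CS+LPS or with NaHS against control, where 4.6% and 2.58% of all probes were called. Their medians were -0.10 and -0.11 on the log2 scale. With PPG, where 4.3% of all probes were called, *Tnf* was 1.04 higher and *Il1a* 1.05 lower (limma adjusted p = 0.0445 and 0.083). *Il1b* was 0.50 ± 0.28 SE and *Tlr2* 0.62 ± 0.26 SE higher with CS+LPS, neither of which was called. The probes of *Il17a*, *Il17f*, *Il6* and *Ifng* were not detected. *Il22*, *Il22ra1*, *Il17rc*, *Nfkbiz* and *Nod2* had no probe with their symbol, so that these signals were not measured.

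In whole-lobe RNA a change in the number of cells of a type and in the RNA of each cell cannot be told apart, and markers of immune cells moved along with *Lcn2*, *Defb4* and *Defb5*. Of 12 neutrophil markers 10 were detected, and their summed signal ranged over 8300 to 19095 on control arrays, over 16360 to 32470 on CS+LPS arrays, 16728 to 34097 in the NaHS group and 25903 to 36020 in the PPG group. This sum is led by its brightest genes, among them *S100a8* and *S100a9*. The median log2 difference of the 10 markers from control was 0.78 with CS+LPS, 0.96 with NaHS and 1.07 with PPG. In the same order 8, 10 and 9 of them were above 0, and 2, 3 and 5 were called higher. Of all probes 1.53%, 1.35% and 2.39% were called higher. The defining granule markers *Elane* and *Ctsg* were not detected, and *Fcnb*, *Mpo*, *Camp*, *S100a8* and *S100a9* stand in this list as well as in the antimicrobial lists. The sum of 7 macrophage markers did not overlap between control, at 9087 to 11399, and any exposed group, the lowest exposed array being at 17511. *Cd68*, one of them, was 1.37, 1.43 and 1.34 higher in the 3 exposed groups. The sum of 6 B and plasma cell markers was 4269 to 6208 in control and 7151 to 12058 on the exposed arrays. The part of these cells in the results for *Lcn2*, *Defb4* and *Defb5* was not tested.

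The label of the tissue was borne out by the alveolar type 2 markers, 6 of 7 being detected, with sums of 801387 to 1111690 in control and 745129 to 949238 on exposed arrays. The club cell sum was 331988 to 719867 in control and 279442 to 361586 on exposed arrays, overlapping. The goblet cell sum moved most of the epithelial sums. It was 3467, 6071 and 19193 on the control arrays, the last being control replicate 3, and spanned 8439 to 23773 on CS+LPS arrays, 17641 to 29068 on NaHS arrays and 26962 to 64446 on PPG arrays, and *Scgb3a1* among these was 2.49 higher with NaHS and 3.62 higher with PPG (limma adjusted p = 0.19 and 0.0395). Such a sum is led by its brightest genes. The median log2 difference of the 6 detected goblet markers from control was 0.06 with CS+LPS, 0.65 with NaHS and 1.05 with PPG. In the same order 3, 4 and 5 of the 6 were above 0, and 0, 1 and 1 were called. The ciliated cell sum was 12392 to 38733 in control and 12932 to 18446 on exposed arrays. The sum of 4 detected pancreas markers ranged over 1536 to 1987 on control arrays, over 1679 to 2020 on CS+LPS arrays, 2684 to 4090 in the NaHS group and 1723 to 3217 in the PPG group, and that of 2 kidney markers stayed at 309 or below.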

How the data were processed

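RNA of 12 rat lung samples was hybridised to one-colour Agilent arrays. Per the file headers, the authors' deposited intensity is the processed signal of Agilent Feature Extraction 10.7.3.1, not yet normalized between arrays. The signals of both control arrays on slide 1 and of NaHS replicate 1 are stored with fewer digits than the others. Whether these files were exported in another way is not known. The deposited lists hold log2 normalized signals, used only for an added comparison, and flag, fold and p columns of the authors' comparisons, which were not used (60 flag columns among them). The pipeline of the lists beyond GeneSpring is not given in the sources used here.

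Outlier spots and 140 control probes were left out, each array's log2 signal was set to the mean 75th percentile over non-control spots, and replicate spots were averaged. A probe was tested where all 3 arrays of some group had it well above background, in limma 3.58.1 (R 4.3.3) over all 12 arrays, with fold 2, p 0.05 and adjusted p 0.05. A lower bound compares the bright group's mean with the dimmest probe above background on each array of the dim group. Symbols came from RefSeq for 17514 probes and from the lists for 194. The code was tested on simulated data. All members were described. Genes of the antimicrobial and inducer lists were named when called, at most 4 per list and comparison by size, and the 3 genes most like a member by Pearson's r; *Camp*, *Il1b* and *Tlr2* were named after their values were seen. Members and lists were chosen with earlier results of these data known. The number of arrays limits the precision.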

Additional observations from a re-analysis of the deposited data

How the results depend on the processing

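Each difference of the 6 detected members was recomputed under 24 to 26 settings, of which the authors' signals gave no test. Each of the 3 exposed groups had 3 called members against control, and *Defb4* was the one whose call was lost under a setting. For CS+LPS+NaHS against control this was so with slide as a block or random block (0.66 and 0.78 on the log2 scale), within slide 1 (0.66), in the methods' t-test (1.02) and without control replicate 3 or NaHS replicate 1, and for CS+LPS against control without control replicate 3. With NaHS, slide as a block, slide 1 alone and leaving out control replicate 3 rest on the same control arrays and are not separate checks. For CS+LPS+NaHS against CS+LPS, where none was called, 2 were with slide as a block (*Defb4* and *Lyz2*) and 0 to 1 when an array was left out (*Pigr*). For CS+LPS+PPG against CS+LPS 1 was called with slide as a block (*Lyz2*). *Lyz2* was also called lower in CS+LPS than in control with slide as a block and within slide 2 (-1.16 in both). The cause was not tested. No called difference changed sign.

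Replicate numbers did not pair the samples: same-numbered arrays deviated from their group means with correlations of -0.31 to 0.14, and 2 of 18 pairs exceeded 0.1. With the replicate block the called members were 3, 3 and 3 against control and 0, 0 and 0 between exposed groups. Over all probes the methods' t-test called 445, 266 and 502 in the comparisons with control, against 978, 549 and 914 in limma, and 1, 0 and 0 passed after Benjamini-Hochberg adjustment. Normexp moved the median of all probes to -0.16 in CS+LPS against control, and the lower limits of *Defb5* came from it. The authors' normalized signals, added after seeing the data, gave 1.37, 1.49 and 1.69 for *Lcn2*, 1.22, 1.00 and 1.26 for *Defb4* and 1.94, 2.33 and 2.39 for *Defb5*, as differences of means with no test. Averaging the probes of a gene changed nothing, each member having 1.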
